A study of Mus musculus with 12 samples.

Results

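Ceramides and the other sphingolipids are made and broken down by a connected set of enzymes, and 10 genes of this set were followed in epididymal white adipose tissue (eWAT) of mice. They were chosen by name for the steps they catalyse, with no measured value in the rule, but with earlier results of these data known. *Sptlc1* and *Sptlc2* encode subunits of serine palmitoyltransferase, *Cers2*, *Cers4*, *Cers5* and *Cers6* encode ceramide synthases, *Degs1* encodes dihydroceramide desaturase, *Asah1* encodes acid ceramidase, *Ugcg* encodes glucosylceramide synthase, and *Sphk1* encodes a sphingosine kinase. These are 10 of the 22947 genes in the table, and all 10 are among the 12775 genes that were tested. Male C57BL/6J mice, 21 weeks old at sampling, had been fed for 16 weeks with a normal diet (ND), a high-fat diet (HFD), the HFD plus an ethanol extract of chrysanthemum leaf (CLE, 1.5% of the diet by weight), or the HFD plus the plant flavonoid luteolin (LU, 0.003% by weight). The CLE and LU mice therefore ate the high-fat diet as well. RNA from the whole tissue of 3 mice per group was sequenced, which gave 12 libraries. The authors call these samples representative of their groups and do not say how they were picked. Their spread may therefore differ from that of all mice fed alike. The comparisons ask which of these enzymes differ with the HFD, and which differ when either supplement is added to it.

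Ceramide is built from serine and palmitoyl-CoA. Serine palmitoyltransferase makes the backbone, a ceramide synthase attaches a fatty acid to it, and the desaturase adds the double bond that turns dihydroceramide into ceramide. The ceramide synthases differ in the fatty acid they prefer: CerS2 attaches very long chains, CerS4 long ones, and CerS5 and CerS6 mainly palmitic acid. Ceramide can then be glycosylated, or it can be cleaved to sphingosine, which sphingosine kinase phosphorylates to the signaling lipid sphingosine 1-phosphate. In adipose tissue, ceramides are known for their link to insulin resistance in obesity.

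Levels are FPKM, fragments scaled to transcript length and sequencing depth, which the authors deposited per transcript and which were summed here per gene. FPKM hold no read counts, so the depth behind a value is unknown. A gene was called when its Benjamini-Hochberg adjusted p in limma, fitted over all 12 libraries and all tested genes, was under 0.05 and its fold change was over 1.5. Log2 fold changes are on the log2(FPKM + 1) scale, where a change of a gene at low FPKM comes out too small. The limma p-values rest on the spread between mice within groups, with 3 mice in each. For each gene all groups share this estimate, which is also drawn toward those of other genes. It therefore does not follow groups of unequal spread. Mice fed alike correlated with a Pearson's r of 0.978 to 0.991 over the genes. The letter R, whose meaning is not given, stands in the labels of LU mouse 2, CLE mouse 4 and ND mice 3 and 4, and the column of ND mouse 4 was matched to this mouse by inference. The adipocyte markers were high in every library, with a summed level of 15700 to 27628 FPKM for 7 genes. The 7 macrophage markers were present as well.

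The genes lay at very different levels. By the mean FPKM over the 12 libraries, *Degs1* was the highest with 124, followed by *Cers2* (84.3), *Asah1* (69.6), *Cers4* (51.7), *Cers5* (31.9), *Sptlc1* (26.9), *Sptlc2* (25.7), *Ugcg* (15.02), *Cers6* (9.29) and *Sphk1* (1.71). Some neighbours in this order did not keep it in each library. *Degs1* was above *Cers2* in 11 of 12 libraries, *Cers2* above *Asah1* in 9, *Asah1* above *Cers4* in 11, *Ugcg* above *Cers6* in 10, and *Sptlc1* above *Sptlc2* in 6. In the other 4 neighbouring pairs, the first gene was the higher one in 12 of 12 libraries. *Sphk1* reached 1 FPKM in 10 of 12 libraries and was higher than only 9.65% of the genes tested, so its values are the least precise. *Sptlc2*, *Cers2*, *Cers4*, *Cers5* and *Sphk1* share part of their position with genes on the opposite strand, and *Cers6* with predicted genes on its own strand. The kit does not mark strand, so reads of such overlaps cannot be told apart.

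**Figure D1:**
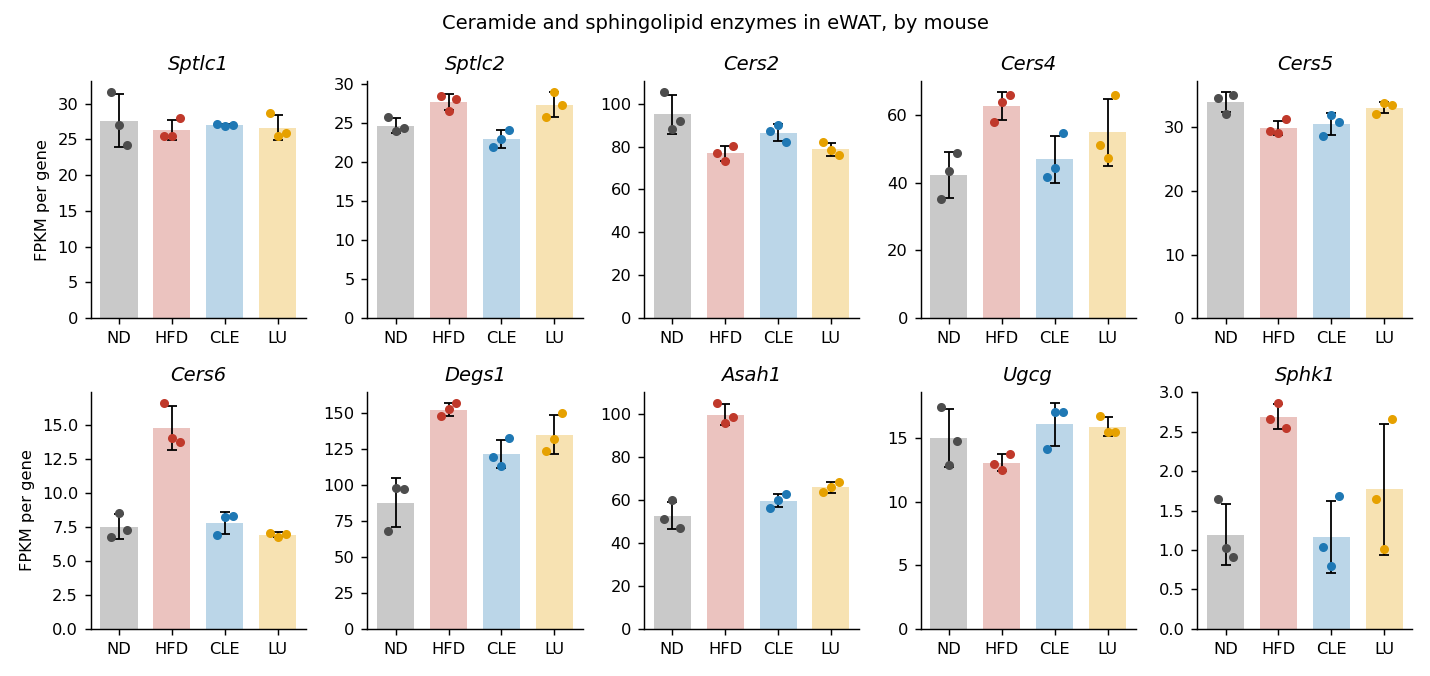
FPKM per gene for each of the 10 enzymes, with 1 point per mouse, bars at the group mean and whiskers of 1 SD (n = 3 mice per group). The HFD mice stand above the ND mice for *Sptlc2*, *Cers4*, *Cers6*, *Degs1*, *Asah1* and *Sphk1*, and below them for *Cers2* and *Cers5*.

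The letters before the start sites of these genes were searched for short motifs in the RefSeq promoters (GRCm38.p6), in the 250 bases before each start and on both strands. RefSeq promoters were found for 9 of the 10 genes. The E-box CACGTG, which basic helix-loop-helix factors such as USF and TFE3 can bind, was in the promoters of 4 of the 9, against 6.02% of 32851 promoters and 6.86% of 27025 genes. A gene may have several promoters, and any match counted. The sequences around it are shown because *Cers6*, *Degs1* and *Sphk1* are 3 of the 4 genes that were called with the HFD. The fourth, *Asah1*, was not searched. *Cers2*, which also has the motif, was not called and was lower with the HFD (log2 difference -0.30). A link between the motif and the diet was not tested. Each window runs 5′ to 3′ on the strand of the gene, with the motif in capitals and 10 bases on each side.
Cers2: ccctgcggggCACGTGccacccgccc
Cers6: gccaggctgcCACGTGacaggcgagg
Degs1: gagcctcaatCACGTGgtccagtcag
Sphk1: tacaccggggCACGTGtgcattttca
The *Cers2* window (chr3:95315051-95315076, plus strand) starts its motif 129 bases before a RefSeq start and lies in an intron of a longer transcript in GENCODE M21. The *Cers6* window (chr2:68861409-68861434, plus strand) has it 22 bases before the start and lies outside the GENCODE gene. For *Degs1* (chr1:182282223-182282248, minus strand) it is 43 bases before a RefSeq start that lies within the GENCODE gene, and 2 bases of the window are in the first exon of a shorter transcript. For *Sphk1* (chr11:116532339-116532364, plus strand) it is 95 bases before one of several starts, in an intron of longer transcripts. The letters TGACTCA, an AP-1 site, were found for *Sphk1* alone among the 9 genes, against 4.46% of promoters and 5.16% of genes. CCAAT was found for 5 of the 9, against 33.9% of promoters and 37.5% of genes. TCACGTGA, which contains the E-box, was found for 0 of the 9, against 0.785% of promoters and 0.907% of genes, and GAGGAAGT, a PU.1 type of site, for 0 of the 9, against 2.44% and 2.79%. A match is a description of the letters, not a site of binding.

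With the HFD, 4 of the 10 genes were called higher than in the ND group and 0 were called lower. The higher ones were *Asah1*, *Cers6*, *Degs1* and *Sphk1*, with log2 fold changes of 0.76 to 0.91. Among all genes tested, 25.6% were called, 14.9% higher and 10.8% lower. The median log2 fold change was 0.36 for the 10 genes and -0.02 for all genes tested. For 8 of the 10 genes there was no overlap between the mice of these groups, against 59.5% of all genes. In limma, 7 of the 10 had an unadjusted p under 0.05, against 56.6% of all genes.

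With CLE added to the HFD, 3 of the 10 were called lower than in the HFD group, and 0 were called higher. They were *Cers6*, *Asah1* and *Sphk1*. Over all genes tested, 16.5% were called, 10.1% lower and 6.33% higher. The median log2 fold change of the 10 was -0.29, against 0.01 for all genes, and the groups did not overlap for 8 of the 10, against 50.6% of all genes. In limma, 7 of the 10 had an unadjusted p under 0.05, against 43.9% of all genes.

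With LU, 2 of the 10, *Cers6* and *Asah1*, were called lower than in the HFD group and 0 higher. Over all genes tested, 12.4% were called, 7.64% lower and 4.81% higher. The median was -0.10 for the 10 and 0.03 for all genes, and the groups did not overlap for 4 of the 10, against 47.6% of all genes. In limma, 4 of the 10 had an unadjusted p under 0.05, against 39.2% of all genes. The same 3 HFD mice enter all 3 comparisons.

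**Figure D2:**
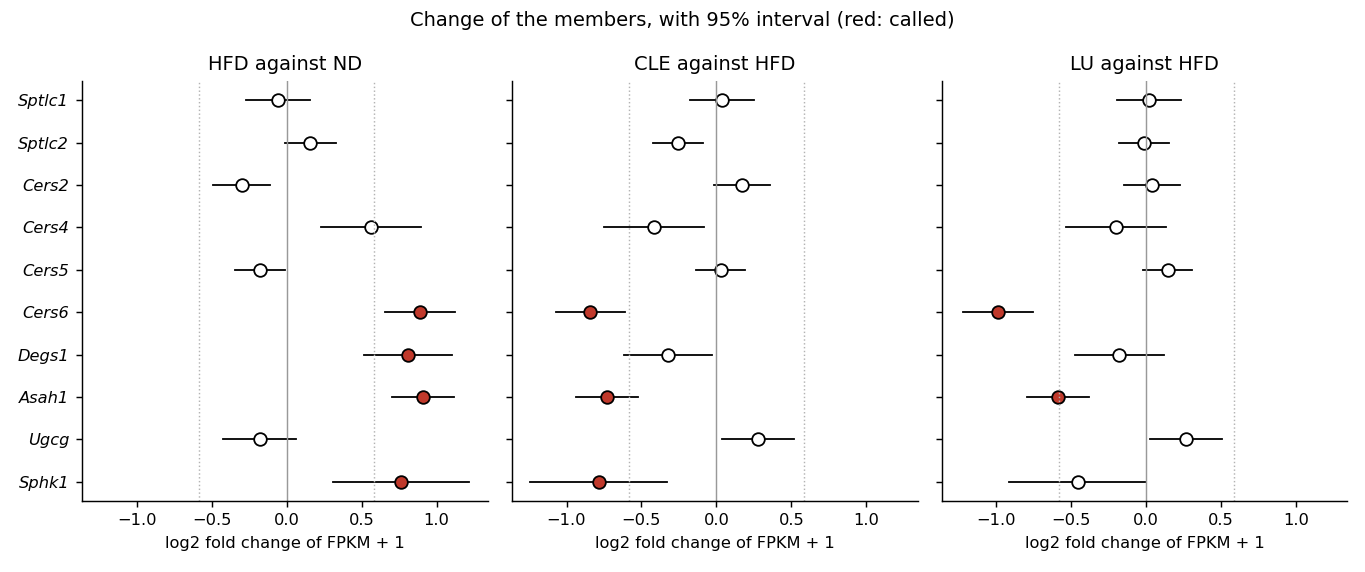
Log2 fold change of FPKM + 1 for each enzyme in 3 comparisons, with the 95% interval from limma (12 libraries), red where called and with dotted lines at a fold change of 1.5. *Cers6* and *Asah1* are red in each panel, higher in HFD than ND and lower in CLE and LU than HFD.

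Neither *Sptlc1* nor *Sptlc2* was called in any of the comparisons. *Sptlc1* (chromosome 13, 53332748 to 53377397 in GRCm38, minus strand), which with *Sptlc2* forms the catalytic core of serine palmitoyltransferase, had 31.6, 27.0 and 24.3 FPKM in ND mice 2, 3 and 4, and 25.5, 25.5 and 28.0 FPKM in HFD mice 12, 15 and 18. CLE mice 2, 4 and 11 had 27.1, 26.9 and 27.0 FPKM, and LU mice 2, 3 and 8 had 28.7, 25.4 and 25.9 FPKM. All 4 groups overlapped, and the log2 difference between HFD and ND was -0.06 with a 95% interval of -0.27 to 0.15. *Sptlc2* (chromosome 12, 87305058 to 87388355, minus strand) had 25.8, 24.0 and 24.3 FPKM in the ND mice, 28.4, 26.5 and 28.1 in the HFD mice, 21.9, 22.9 and 24.2 in the CLE mice, and 25.8, 29.0 and 27.4 in the LU mice. Each HFD mouse was above each ND and each CLE mouse. The log2 difference between HFD and ND was 0.16 (standard error 0.08, limma adjusted p = 0.104). Between CLE and HFD it was -0.26 (standard error 0.08, limma adjusted p = 0.0229). Neither passed the fold change of 1.5.

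Relative to *Sptlc1*, the level of *Sptlc2* was 0.902 ± 0.095 in the ND group, 1.05 ± 0.056 in HFD, 0.851 ± 0.043 in CLE and 1.03 ± 0.12 in LU (SD, n = 3 mice). The HFD mice were above the ND mice and above the CLE mice in this ratio (exact permutation test, two-sided p = 0.1 for both, the smallest that 3 mice against 3 allow). Against ND the gap was close to nil, with 1.0034 in HFD mouse 18 and 1.0031 in ND mouse 4. The highest CLE value was 0.894, in CLE mouse 11. The LU mice overlapped with the HFD mice (exact permutation p = 0.9). The cause of these differences was not tested.

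Among the ceramide synthases, *Cers6* stood apart. *Cers6* (chromosome 2, 68861441 to 69114282, plus strand) had 6.78, 8.54 and 7.32 FPKM in ND mice 2, 3 and 4. It had 16.7, 14.0 and 13.8 FPKM in HFD mice 12, 15 and 18. In the CLE mice it had 6.89, 8.27 and 8.33 FPKM, and in the LU mice 7.07, 6.75 and 7.03. The 3 HFD mice were thus each above the 9 others, and the ND, CLE and LU mice overlapped. *Cers6* rose with the HFD by 0.89 on the log2 scale (standard error 0.11, limma adjusted p = 4.09e-05). It fell by 0.84 with CLE (standard error 0.11, limma adjusted p = 0.000145) and fell by 0.99 with LU (standard error 0.11, limma adjusted p = 0.000185). All of these calls held in each of the 27 alternative settings. Not all of these settings could put a call at risk, here and below. Calling by the adjusted p alone cannot lose a call. Leaving out a library of a group not compared leaves the fold change as it is and alters only the p-value. Most of the level came from the transcript ENSMUST00000028426, with 93.6% of the gene's FPKM in ND, 82.5% in HFD, 72.3% in CLE and 89.1% in LU. In bulk tissue, fewer cells of a type and less RNA per cell cannot be told apart, here and in the results that follow.

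The other ceramide synthases differed less. *Cers4* (chromosome 8, 4493026 to 4531680, plus strand) had 35.2, 43.3 and 48.7 FPKM in the ND mice, 58.0, 63.9 and 65.9 in the HFD mice, 41.6, 44.3 and 54.8 in the CLE mice, and 51.2, 47.3 and 66.0 in the LU mice. The HFD mice were above all ND and CLE mice, while LU mouse 8 was as high as the highest HFD mouse. The log2 difference between HFD and ND was 0.56 (standard error 0.15, limma adjusted p = 0.00941), a fold change of 1.48 that did not reach 1.5. It passed 1.5 without ND mouse 4 (log2 fold change 0.67) and without HFD mouse 12 (0.61), as it did with the letter R as a covariate (0.59, limma adjusted p = 0.0236) and without the assembled variants of transcripts (0.61, limma adjusted p = 0.00911). Against HFD, the log2 difference was -0.42 with CLE (limma adjusted p = 0.0532) and -0.20 with LU (limma adjusted p = 0.358).

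*Cers2* (chromosome 3, 95314791 to 95323599, plus strand), the most abundant ceramide synthase in these libraries, had 105, 88.0 and 91.8 FPKM in the ND mice, 77.2, 73.2 and 80.1 in the HFD mice, 87.4, 90.0 and 82.1 in the CLE mice, and 82.0, 78.4 and 76.0 in the LU mice. The HFD mice were below all ND and all CLE mice and overlapped with the LU mice. The log2 difference between HFD and ND was -0.30 (standard error 0.09, limma adjusted p = 0.0127), short of a fold change of 1.5. Between CLE and HFD it was 0.17 (limma adjusted p = 0.152). *Cers5* (chromosome 15, 99734881 to 99772885, minus strand) had 34.5, 32.2 and 35.1 FPKM in the ND mice, 29.4, 29.1 and 31.2 in the HFD mice, 28.7, 32.0 and 30.8 in the CLE mice, and 32.1, 33.8 and 33.4 in the LU mice. The HFD mice were below all ND and all LU mice, with log2 differences of -0.18 for HFD against ND (limma adjusted p = 0.0692) and 0.14 for LU against HFD (limma adjusted p = 0.181). The deposited table lists the 12 transcripts of *Cers5* under the name of another gene, *Lima1*, so they were found by their Ensembl identifiers.

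The balance between the ceramide synthases was compared within each library, as the share of the summed FPKM of *Cers1* to *Cers6*. *Cers1* and *Cers3* did not reach 1 FPKM in any library. The sum itself was 179 ± 5.91 FPKM in ND, 184 ± 5.99 in HFD, 172 ± 6.30 in CLE and 174 ± 8.13 in LU (SD, n = 3 mice), and it overlapped between HFD and ND (exact permutation test, two-sided p = 0.6). The CLE mice were below the HFD mice in the sum (exact permutation p = 0.1, the smallest possible), and the LU mice overlapped with them (exact permutation p = 0.3). Within this sum, the share of *Cers2* was 57.9%, 51.0% and 50.1% in the ND mice, and 42.5%, 40.6% and 41.9% in the HFD mice. It was 53.1%, 51.5% and 46.6% in the CLE mice and 47.5%, 47.1% and 41.6% in the LU mice. The ND and CLE mice did not overlap with the HFD mice (exact permutation p = 0.1 for both, the smallest possible), whereas LU mouse 8 lay among them (exact permutation p = 0.3).

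The shares add up to the whole in each library, so a lower share of *Cers2* forces a higher share among the other genes. The results on shares are therefore not separate from each other. In the opposite direction to *Cers2*, the mean share of *Cers4* was 23.7% in ND, 33.9% in HFD, 27.2% in CLE and 31.4% in LU. That of *Cers6* was 4.23% in ND, 8.05% in HFD, 4.55% in CLE and 4.00% in LU. The share of *Cers5* was 18.9% in ND, 16.2% in HFD, 17.7% in CLE and 19.1% in LU. For these 3 genes, the HFD mice did not overlap with the ND mice or with the CLE mice (exact permutation p = 0.1 in each case, the smallest possible). The LU mice did not overlap with the HFD mice for *Cers5* and *Cers6* and overlapped for *Cers4* (exact permutation p = 0.4).

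**Figure D3:**
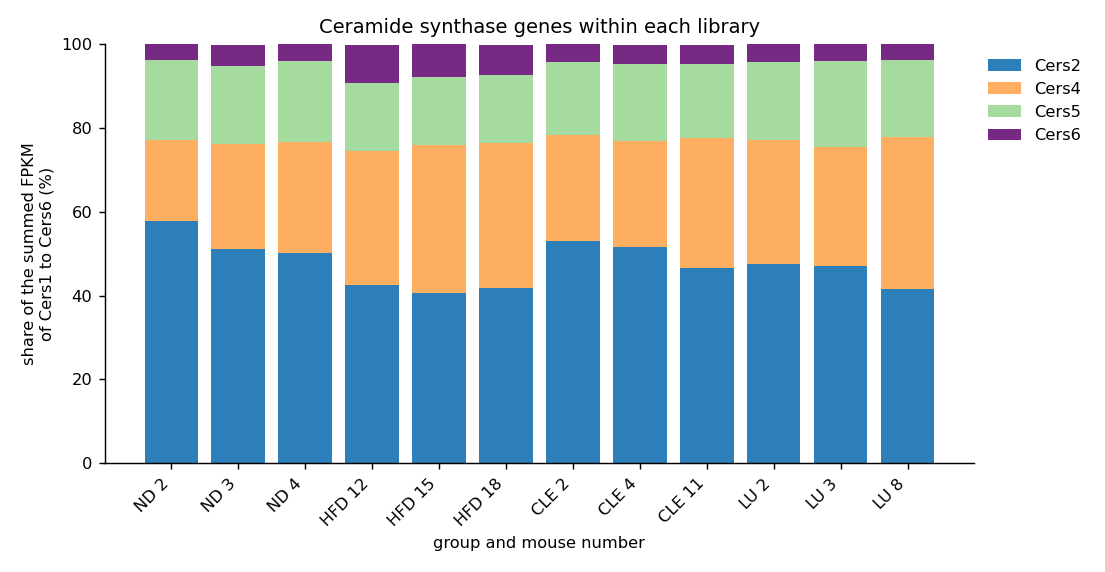
Share of the summed FPKM of *Cers1* to *Cers6* held by *Cers2*, *Cers4*, *Cers5* and *Cers6* in each library, in percent, labelled with group and mouse number (*Cers1* and *Cers3* make up the small rest). *Cers2* holds 40.6% to 42.5% in the HFD libraries and 50.1% to 57.9% in the ND libraries.

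The desaturase gene *Degs1* (chromosome 1, 182275772 to 182282804, minus strand) rose with the HFD and was not called with either supplement. It had 68.2, 97.7 and 97.3 FPKM in ND mice 2, 3 and 4, and 148, 153 and 157 in HFD mice 12, 15 and 18. CLE mice had 119.7, 113 and 132 FPKM, and LU mice had 123, 132 and 149.9. Each mouse on any of the high-fat diets was above each ND mouse, each CLE mouse was below each HFD mouse, and LU mouse 8 lay within the HFD range. The rise with the HFD was 0.81 on the log2 scale for *Degs1* (standard error 0.13, limma adjusted p = 0.000452), a call that held in each of the 27 alternative settings. Against HFD, the log2 difference was -0.33 with CLE (95% interval -0.62 to -0.03, limma adjusted p = 0.0832) and -0.18 with LU (95% interval -0.47 to 0.12, limma adjusted p = 0.353).

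Most of the *Degs1* level came from the full-length transcript ENSMUST00000035295, with 86.8% of the gene's FPKM in ND, 76.5% in HFD, 79.0% in CLE and 81.8% in LU. The shorter transcript ENSMUST00000133052 starts next to the E-box window given for *Degs1* above. It had 9.47, 8.98 and 10.1 FPKM in the ND mice, 32.6, 28.7 and 34.7 in the HFD mice, 19.3, 22.0 and 25.0 in the CLE mice, and 19.4, 19.0 and 28.0 in the LU mice. Its share of the gene was thus 10.9% in ND, 21.0% in HFD, 18.2% in CLE and 16.4% in LU. How reads were divided between the transcripts is an estimate made by the authors' software, and its error is not in the table.

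*Asah1* (chromosome 8, 41340197 to 41374773, minus strand), the lysosomal ceramidase that frees sphingosine from ceramide, rose with the HFD and fell with both supplements. It had 51.3, 59.9 and 47.2 FPKM in the ND mice and 105, 95.8 and 98.5 in the HFD mice. In the CLE mice it had 56.4, 60.2 and 62.6 FPKM, and in the LU mice 63.6, 66.0 and 68.6. The HFD mice were above all others, the LU mice were above the ND and CLE mice, and CLE overlapped with ND. The rise with the HFD was 0.91 on the log2 scale (standard error 0.09, limma adjusted p = 1.49e-05). With CLE, *Asah1* fell by 0.73 (standard error 0.09, limma adjusted p = 0.00017), and both calls held in each of the 27 alternative settings. With LU, it fell by 0.59 (standard error 0.09, limma adjusted p = 0.00117), a fold change of 1.503 that lies at the threshold. The LU call was lost without HFD mouse 12 (log2 fold change -0.55) and without LU mouse 2 (-0.56), in both cases through the fold change and not the adjusted p.

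*Ugcg* (chromosome 4, 59189257 to 59222833, plus strand), which starts the glycosphingolipids by adding glucose to ceramide, was not called in any comparison. It had 17.4, 12.9 and 14.8 FPKM in the ND mice, 13.0, 12.5 and 13.8 in the HFD mice, 14.2, 17.0 and 17.1 in the CLE mice, and 16.8, 15.5 and 15.5 in the LU mice. Each CLE and each LU mouse was above each HFD mouse. The log2 difference from HFD was 0.28 with CLE (95% interval 0.03 to 0.52, limma adjusted p = 0.0742) and 0.27 with LU (95% interval 0.02 to 0.51, limma adjusted p = 0.0974). Between HFD and ND it was -0.18 (95% interval -0.42 to 0.06).

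*Sphk1* (chromosome 11, 116530925 to 116536674, plus strand), which makes sphingosine 1-phosphate, was low throughout. It had 1.64, 1.03 and 0.915 FPKM in the ND mice and 2.66, 2.86 and 2.55 in the HFD mice. In the CLE mice it had 1.03, 0.796 and 1.68 FPKM, and in the LU mice 1.65, 1.01 and 2.66. The HFD mice were above all ND and CLE mice, and LU mouse 8 was as high as the HFD mice. *Sphk1* rose with the HFD by 0.76 on the log2 scale (standard error 0.21, limma adjusted p = 0.00995) and fell by 0.79 with CLE (standard error 0.21, limma adjusted p = 0.0131). The CLE call was lost without CLE mouse 4 (log2 difference -0.66, limma adjusted p = 0.0571). With LU the log2 difference was -0.46 (limma adjusted p = 0.127), and without LU mouse 8 it was -0.68 and called (limma adjusted p = 0.0262). Without the libraries marked R, the ND group is ND mouse 2 alone, which had the highest *Sphk1* of its group, and limma takes this mouse to vary like the other groups. The log2 difference was then 0.48 with the HFD (limma adjusted p = 0.255), and with CLE, left with 2 mice, it was -0.66 (limma adjusted p = 0.0881).

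The supplemented mice were also set against the ND group. Between CLE and ND, 0 of the 10 were called in limma, against 2.91% of all genes tested, and 1 had an unadjusted p under 0.05, against 23.3%. That gene was *Degs1*, with a log2 difference of 0.48 (95% interval 0.19 to 0.78, limma adjusted p = 0.0587). Between LU and ND, 1 of the 10 was called, again *Degs1*, against 6.59% of all genes. In the same test 4 of the 10 had an unadjusted p under 0.05, against 27.7% of all genes, and for 4 the groups did not overlap, against 30.1%. For *Degs1*, the log2 fold change was 0.63 (standard error 0.13, limma adjusted p = 0.0115), a fold change of 1.55. This call was lost without ND mouse 2 (log2 fold change 0.46) and without LU mouse 8 (0.55, limma adjusted p = 0.0527). ND mouse 2 had the lowest *Degs1* and LU mouse 8 the highest of their groups. *Asah1* differed between LU and ND by 0.32 (95% interval 0.12 to 0.53, limma adjusted p = 0.0442), which is too small a fold change for a call. *Cers2* differed by -0.26 (95% interval -0.45 to -0.08, limma adjusted p = 0.0661), with no overlap, and *Cers4* by 0.36 (95% interval 0.03 to 0.69, limma adjusted p = 0.146). For *Cers6* the log2 difference from ND was 0.05 with CLE (95% interval -0.18 to 0.28) and -0.10 with LU (95% interval -0.33 to 0.13).

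Between CLE and LU, 0 of the 10 genes were called in limma, against 0.00783% of all genes, and 1 had an unadjusted p under 0.05, against 5.26%. For 4 of the 10 the groups did not overlap, against 9.03% of all genes. *Sptlc2* was lower in CLE than in LU by -0.24 on the log2 scale (95% interval -0.41 to -0.07, limma adjusted p = 0.891), *Asah1* by -0.14 (95% interval -0.35 to 0.06) and *Cers5* by -0.12 (95% interval -0.28 to 0.05). *Cers2* was higher in CLE by 0.13 (95% interval -0.05 to 0.32). The widest interval was that of *Sphk1*, with a difference of -0.33 and an interval of -0.79 to 0.13, which leaves differences of that size unresolved.

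The other genes of sphingolipid metabolism were taken from a list of 61, of which 51 passed the filter on low FPKM. Among all genes tested, 14.9% were called higher with the HFD and 10.8% lower, with a median log2 fold change of -0.02. With the HFD, 21 of the 51 were higher by the call and 2 lower, and the median log2 fold change was 0.43. The rises with the largest log2 fold change among them were those of *Gla*, a lysosomal galactosidase (2.33, limma adjusted p = 1.23e-05), *S1pr2*, a sphingosine 1-phosphate receptor (2.22, limma adjusted p = 7.5e-07), *B4galt5*, which makes lactosylceramide (2.21, limma adjusted p = 1.79e-05), *B4galnt1*, a ganglioside synthase (2.15, limma adjusted p = 8.32e-06), and *Acer3*, an alkaline ceramidase (1.96, limma adjusted p = 2.03e-06). Per library, *Acer3* had 4.07, 4.76 and 3.45 FPKM in the ND mice, 19.5, 16.0 and 20.8 in the HFD mice, 4.89, 6.01 and 6.87 in the CLE mice, and 8.0, 7.38 and 10.3 in the LU mice. The HFD mice did not overlap with any other group, and LU stood above CLE.

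Not all steps moved together. Of 5 tested genes of serine palmitoyltransferase and its regulators, 2 were called higher with the HFD and 1 lower. The 3 are named here after their values were seen. *Sptlc3*, another subunit gene, had 0.391, 0.0278 and 0.372 FPKM in the ND mice, 2.95, 2.69 and 2.05 in the HFD mice, 0.297, 0.308 and 0.496 in the CLE mice, and 0.358, 0.66 and 1.46 in the LU mice. Each HFD mouse was above all others. *Sptlc3* reached 1 FPKM in 4 libraries, those of the HFD mice and LU mouse 8. It thus passed the filter only through mice where it was high, so its calls were not independent of that filter. The log2 difference of *Sptlc3* was 1.50 with the HFD (limma adjusted p = 8.48e-05) and -1.38 with CLE (limma adjusted p = 0.000351), and with LU *Sptlc3* was called lower too (95% interval -1.43 to -0.57, limma adjusted p = 0.00382). *Ormdl1*, a regulator of the enzyme, had 6.39, 6.81 and 6.31 FPKM in the ND mice, 11.1, 9.37 and 10.8 in the HFD mice, 6.64, 6.44 and 6.07 in the CLE mice, and 7.81, 7.79 and 7.74 in the LU mice. It was called higher with the HFD (0.60, limma adjusted p = 8.45e-05) and lower with CLE (-0.63, limma adjusted p = 0.00015). Of 5 tested genes of glycosphingolipid synthesis 4 were called higher with the HFD, and of 13 genes of glycosphingolipid breakdown 8. Of 3 sphingomyelin synthases none was called (0 of 3), and of 6 sphingomyelinases 1. The 2 genes called lower over the whole list, named after their values were seen, were *Acer2*, another alkaline ceramidase, at -1.09 on the log2 scale (limma adjusted p = 0.000302), and *Ormdl3*, like *Ormdl1* a regulator of serine palmitoyltransferase, at -0.71 (limma adjusted p = 0.000193). *Ormdl1* thus rose with the HFD while *Ormdl3* fell. *Ormdl3* had 204, 157 and 168 FPKM in the ND mice and 103, 110.3 and 106 in the HFD mice, with no overlap. In the CLE mice *Ormdl3* had 163, 163 and 138 FPKM, and in the LU mice 145, 149 and 144. *Acer2* had 45.7, 28.1 and 30.1 FPKM in the ND mice, 16.6, 13.9 and 15.7 in the HFD mice, 34.9, 41.6 and 31.0 in the CLE mice, and 29.4, 34.9 and 28.6 in the LU mice. Among the ceramidase genes, *Asah1* and *Acer3* thus rose with the HFD while *Acer2* fell.

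With CLE, 20 of the 51 were called lower than in the HFD group and 4 higher, against 10.1% and 6.33% of all genes tested. The median was 0.01 for all genes and -0.26 for the 51. The largest falls were those of *Gla* (-1.86), *S1pr2* (-1.74), *B4galt5* (-1.74), *Acer3* (-1.51) and *B4galnt1* (-1.47), with limma adjusted p between 1.96e-05 and 0.000292. The 4 called higher, named after their values were seen, were *Acer2* (1.16), the receptor gene *S1pr4* (0.81), the lipid phosphatase gene *Plpp1* (0.81) and the glucosylceramidase gene *Gba2* (0.69, with overlapping groups). *S1pr4* was low, with 0.834, 0.789 and 0.987 FPKM in the HFD mice and a mean of 2.28 in CLE. It passed the filter only through the groups where it was higher, so its call was not independent of that filter. With LU, 17 of the 51 were called lower and 3 higher, against 7.64% and 4.81% of all genes. The median was 0.03 for all genes and -0.19 for the 51. The largest falls were those of *S1pr2* (-1.53), *Gla* (-1.51), *B4galt5* (-1.32), *Degs2*, a second desaturase (-1.17), and *B4galt6*, a second lactosylceramide synthase (-1.14), with limma adjusted p between 0.000113 and 0.00213. The 3 called higher were *Acer2* (0.96), *Plpp1* (0.67) and the receptor gene *S1pr1* (0.67).

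Between CLE and ND 0 of the 51 were called in limma, against 2.91% of all genes. In the same test 3 had an adjusted p under 0.05 and 18 an unadjusted p under 0.05, against 5.17% and 23.3% of all genes. Over all genes, 6.59% were called between LU and ND in either direction. Of the 51, 8 were called higher and 0 lower, among them *B4galnt1* (1.06), *Acer3* (0.90), *B4galt5* (0.89), *Gla* (0.82) and *Psap*, the precursor of the saposins (0.71). Of 28 alternative settings, the call was lost in 14 for *Gla*, among them each setting without 1 ND mouse (limma adjusted p = 0.0712 to 0.0971), without HFD mouse 12 or 18, without CLE mouse 4 and without LU mouse 8 (log2 fold change 0.53, limma adjusted p = 0.132). It was lost in 10 for *B4galt5*, among them each setting without 1 ND mouse (limma adjusted p = 0.0584 to 0.0747) and without LU mouse 8 (0.66, limma adjusted p = 0.111). It was lost in 3 for *Acer3*, 1 for *Psap* and 0 for *B4galnt1*. Between CLE and LU 0 were called in limma, against 0.00783% of all genes, with 5 at an unadjusted p under 0.05, against 5.26%.

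**Figure D4:**
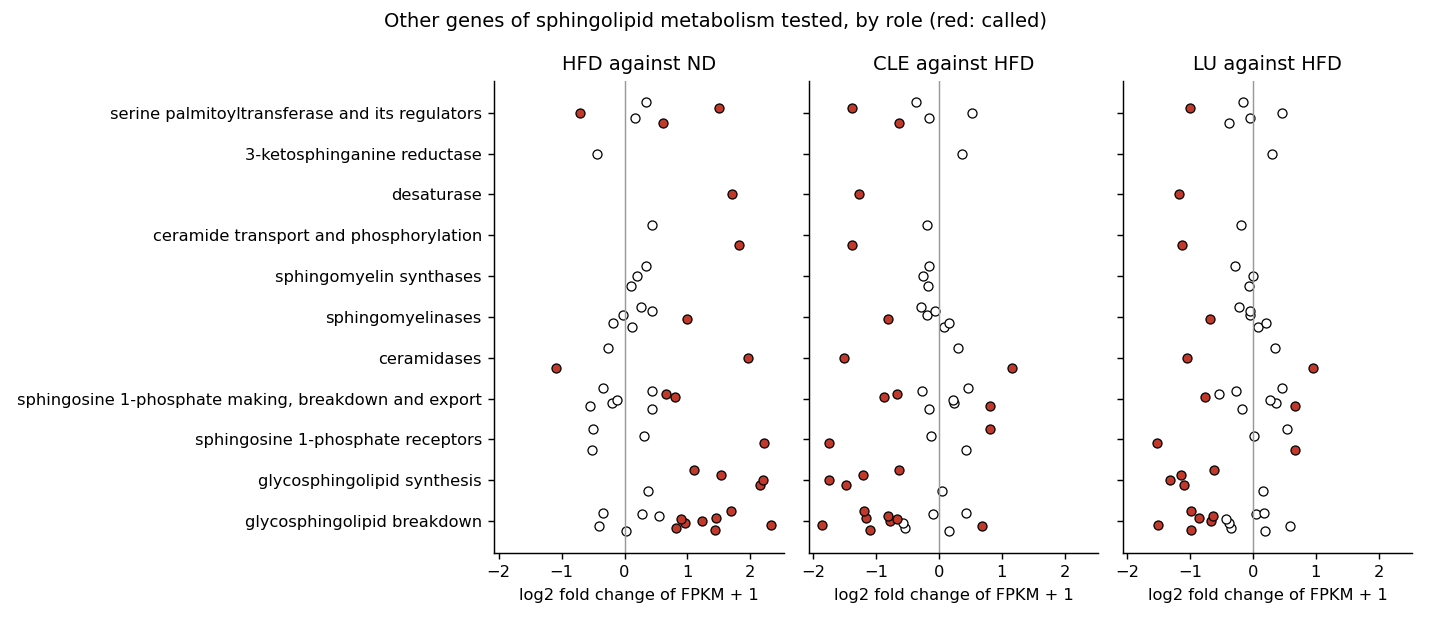
Log2 fold change of FPKM + 1 for the 51 tested genes of the list, by role, in 3 comparisons, with 1 point per gene and red where called. In HFD against ND the red points lie to the right except for *Acer2* and *Ormdl3*, and in CLE and LU against HFD most lie to the left.

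Markers of macrophages differed between the groups as well. All 7 of 7 were called higher with the HFD, and 7 of 7 were called lower with CLE and with LU. Their summed level was 319.7 to 489 FPKM in ND, 2204 to 2530 in HFD, 559 to 818 in CLE and 887 to 1005 in LU. The lowest value of any of the 7 was 3.43 FPKM, for *Itgam* in ND mouse 2. Of the 7 adipocyte markers 5 were called lower and 1 higher with the HFD, and their summed level was 26115 to 27628 FPKM in ND, 15700 to 17677 in HFD, 23268 to 25031 in CLE and 21778 to 26832 in LU. Both sums separated the HFD mice from all other mice, as *Asah1* and *Cers6* did. Among the other groups, the macrophage sum was lowest in ND and highest in LU. *Lyz2* made up most of this sum, with a mean of 289 FPKM in ND, 517 in CLE and 717 in LU. The other markers had the same order of means except *Cd14*, with 13.4 in ND, 9.54 in CLE and 10.4 in LU. In the order ND, CLE and LU, the mean level was 52.8, 59.7 and 66.1 FPKM for *Asah1*, 87.7, 121.7 and 135 for *Degs1*, 7.55, 7.83 and 6.95 for *Cers6*, and 1.20, 1.17 and 1.77 for *Sphk1*. The part of the cell makeup in the differences was not tested. The summed markers of T cells, B cells, skeletal muscle and epididymis were under 10 FPKM in every library. Single markers of other lists moved too. Of the 3 mast cell markers, *Cpa3* and *Mcpt4* were called higher with the HFD and lower with both supplements, and *Kit* was called lower with the HFD, while the sum was 7.30 to 11.9 FPKM in ND, 7.86 to 11.1 in HFD, 5.75 to 7.05 in CLE and 4.78 to 8.88 in LU. *Cpa3* reached 1 FPKM only in the HFD mice and ND mouse 3, so it passed the filter only through the HFD group. Of the 5 progenitor and fibroblast markers, *Col1a1* (log2 fold change 2.12) and *Pdgfrb* (0.62) were called higher with the HFD, and *Col1a1* lower with CLE (-1.48) and LU (-0.97). The sum was 562 to 801 FPKM in ND, 706 to 768 in HFD, 463 to 656 in CLE and 555 to 681 in LU. Of the 5 endothelial markers, 0 were called with the HFD, 2 were called higher with CLE (*Tie1* and *Kdr*) and 3 with LU (also *Cdh5*), with a sum of 215 to 349 in ND, 173 to 285 in HFD, 269 to 391.9 in CLE and 303 to 369 in LU. The smooth muscle gene *Acta2* was called higher with both supplements. *Msln* and *Upk3b* of mesothelium were called lower with the HFD, with overlapping groups. ND mouse 4 was the highest, with 9.40 FPKM for *Msln* and 25.6 for *Upk3b*. ND mouse 2, with 0.449 and 1.47, lay within the HFD range. *Msln* was under 1 FPKM in each HFD mouse, so it passed the filter only through other groups. *Alb* of liver was called lower with the HFD and higher with CLE. The part of these markers in the differences was not tested either.

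**Figure D5:**
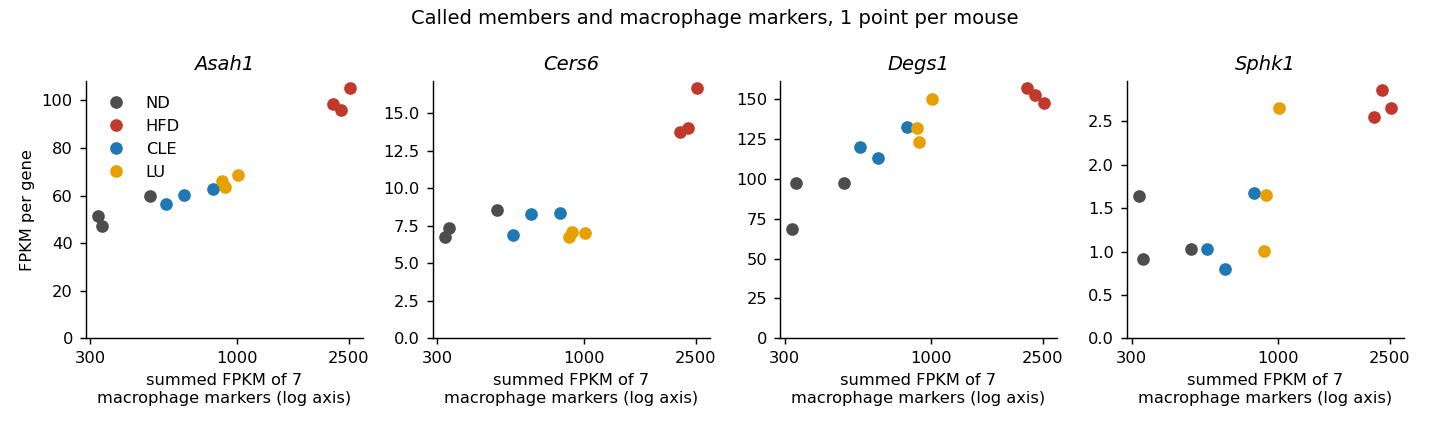
FPKM of the 4 called enzymes against the summed FPKM of 7 macrophage markers (log axis), with 1 point per mouse coloured by group. The HFD mice lie at the right with 2204 to 2530 FPKM, and *Cers6* is at 6.75 to 8.54 FPKM in the 9 other mice.

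As a description, the tested genes with the profile most like that of each called enzyme were listed by Pearson's r of log2(FPKM + 1) over the 12 libraries, which share groups and mice. For *Asah1* these were *Fyb*, *Snx5* and *Ptpro*, each with r = 0.994. For *Degs1* they were *Lbp* (0.992), *Saa3* (0.986) and *E2f1* (0.983), and for *Cers6* they were *Scd1*, *Slc25a13* (both 0.960) and *Thoc5* (0.958). *Scd1* is listed at 0 in the 9 libraries outside the HFD group. Whether it was silent there or was missed in quantification was not tested, so its r with *Cers6* says little. For *Sphk1* they were *Hars* (0.954), *Lactb* (0.932) and *Prpf19* (0.931). Among the enzymes themselves, r was 0.896 between *Asah1* and *Cers6*, 0.771 between *Asah1* and *Degs1* and -0.947 between *Cers2* and *Degs1*.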

How the data were processed

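Total RNA of eWAT was made into unstranded mRNA libraries. The labels name CASAVA 1.8.2, Bowtie2 2.2.3, TopHat2 2.0.12 and Cufflinks 2.2.1 among the authors' tools. The authors deposited FPKM values for 152210 transcripts, not counts. The authors' own comparisons in the table were left aside, as were 3 columns that fit none of the samples. Transcripts with an Ensembl identifier, assembled variants of them included, were summed per gene of GENCODE M21 (GRCm38). The test was limma 3.58.1 (R 4.3.3) on log2(FPKM + 1) for genes at 1 FPKM or more in 3 or more libraries, without covariates, with Benjamini-Hochberg adjustment within a contrast. Shares and ratios were given two-sided exact permutation tests. The fit was tested on simulated data. The alternatives changed the pseudocount, the filter, the scaling, the moderation, the transcripts summed and the libraries included. The authors' test on read counts was not repeated, since the table holds none. All 10 enzymes are named, and of the other pathway genes the 5 called with the largest change per contrast. Members, lists and motifs were chosen with earlier results of these data known. Python 3.11.15 was used for tables.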

Additional observations from a re-analysis of the deposited data

How the results depend on the processing

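The number of enzymes called was within 1.5 times that given, except as follows. Against ND with LU (1 called), it was 0 with only the compared groups, with array weights, with the highest transcript and with a replicate block, 2 by the adjusted p alone, and 0 to 1 leaving out 1 library each. Against HFD with LU (2 called), it was 1 with the highest transcript and among the 8 libraries without the letter R, and 1 to 3 leaving out 1 library each. Against ND with CLE (0 called), it was 1 without the R libraries (*Degs1*, 0.87). There, the ND group is ND mouse 2 alone, which had the lowest *Degs1* of all mice, so such values against ND compare with 1 mouse, taken by limma to vary like the other groups. Of the other pathway genes, 36 (HFD against ND), 3 (CLE against ND) and 17 (LU against ND) were called by the adjusted p alone. LU against ND gave 5 without the R libraries (against that 1 ND mouse), 2 with a replicate block and 4 to 10 leaving out 1 library each, and CLE against ND 0 to 3. *Sphk1* against ND with HFD was not called with R as a covariate (0.58). The cause was not tested.

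The log2 differences that turned sign were all of uncalled genes. For *Sptlc1*, they were -0.016 (LU against HFD, median ratios), and with array weights 0.0114 (HFD against ND), 0.0446 (CLE against ND) and 0.0406 (LU against ND). For *Sptlc2* with LU against HFD, they were 0.0035 (quantiles), 0.0069 (R as a covariate) and 0.0357 (without assembled variants), and against ND with CLE 0.2481 (highest transcript). Without assembled variants, *Ugcg* had -0.0698 (CLE against ND) and -0.1076 (CLE against LU), and *Sphk1* 0.0798 (CLE against ND). With the highest transcript, CLE against ND gave -0.2873 for *Cers6* and -0.1339 for *Ugcg*, CLE against LU gave -0.0031 for *Cers2*, -0.1223 for *Cers6* and -0.1449 for *Ugcg*, and LU against ND gave 0.0269 for *Cers5*. Without the R libraries, *Cers5* had -0.0072 (CLE against HFD), *Sptlc1* -0.0347 and *Sptlc2* 0.0237 (LU against HFD), *Ugcg* -0.1559 (CLE against ND) and -0.1631 (LU against ND), *Cers6* 0.0194 (LU against ND), and the ratio of *Sptlc2* to *Sptlc1* 0.0448 (LU against HFD).

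Leaving out 1 library each, ranges that crossed 0 were, for *Sptlc1*, -0.1459 to 0.0375 (HFD against ND), -0.1087 to 0.0747 (CLE against ND), -0.1288 to 0.0546 (LU against ND), -0.0347 to 0.0599 (LU against HFD) and -0.012 to 0.0718 (CLE against LU). For *Sptlc2* it was -0.0573 to 0.0237 (LU against HFD), for its ratio to *Sptlc1* -0.0753 to 0.0448, for *Cers5* -0.0072 to 0.0697 (CLE against HFD), and for *Cers6* -0.0164 to 0.1301 and for *Sphk1* -0.1863 to 0.1168 (both CLE against ND). For *Ugcg* it was -0.0013 to 0.2038 (CLE against ND), -0.0132 to 0.1919 (LU against ND) and -0.0313 to 0.0959 (CLE against LU).

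The mice were not treated as paired by their numbers. Deviations from the group means correlated by -0.099 to 0.189 in the 5 pairs of the same number. Pairs of different numbers ranged from -0.261 to 0.332. With so few pairs, this does not settle whether the numbers pair the mice. With a replicate block, fitted on the 7 libraries that share numbers, *Ugcg* had -0.0199 (CLE against ND) and -0.1703 (CLE against LU). Depth is unknown, so no floor in reads can be given, and *Sphk1* was not tested with a filter on a mean of 5 FPKM or with the highest transcript.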
